A study of Mus musculus with 2 samples.

Results

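The miR-26 family of the mouse consists of 3 microRNA loci, Mir26b, Mir26a-1 and Mir26a-2, which lie in introns of the paralogous phosphatase genes Ctdsp1, Ctdspl and Ctdsp2. They were taken by Ensembl gene identifier in GENCODE M21 from the 2202 microRNA loci counted in the series, and all 3 were found. The libraries were made from RNA below 30 nt of the left cerebral cortex of B6CASTF1/J females aged 14 days, which are first-generation hybrids between C57BL/6J and CAST mice. There was 1 group of 2 biological replicates, with no treatment, genotype or other tissue, so levels are a description and no condition was compared. The labels mention several females for replicate 1 and a single female for replicate 2 and carry 1 donor record for both, so the spread between the libraries may be in part technical.

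A microRNA is cut from a hairpin in a longer transcript, and bases 2 to 8 of the mature strand, the seed, pair with target messenger RNAs and lower their output. The miR-26 hairpins are released from the host gene's intron, so that host and microRNA can be made from the same transcript. The CTDSP proteins are small phosphatases that act on the C-terminal domain of RNA polymerase II and are known as partners of REST, the repressor of neuronal genes in non-neuronal cells. miR-26 is known to target Ctdsp messages and to rise in neuronal differentiation. Host transcripts and targets were not measured here.

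The mature sequences decide which reads can be assigned to which locus and are given first. They are RefSeq sequences on GRCm38.p6, written 5′ to 3′ with the seed in capitals, and all 3 loci matched a RefSeq entry whose hairpin is identical to the GENCODE M21 sequence. These are the strands from the 5′ arm of each hairpin, from which the main product is known to come:
Mir26a-1, miR-26a-5p: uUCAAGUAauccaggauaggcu
Mir26a-2, miR-26a-5p: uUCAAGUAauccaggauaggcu
Mir26b, miR-26b-5p: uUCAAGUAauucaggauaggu
The 5′ arms of Mir26a-1 and Mir26a-2 are identical in 22 of 22 bases. Counted from base 1 of miR-26a-5p, miR-26b-5p differs by C11U and C21U and is 21 nt long, so the seed UCAAGUA is the same at all 3 loci. No other mature mouse microRNA in the RefSeq table, of 1674 distinct sequences, carries this seed.

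The strands from the 3′ arm, shown because they tell the loci apart, are these, again with bases 2 to 8 in capitals:
Mir26a-1, miR-26a-1-3p: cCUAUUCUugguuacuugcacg
Mir26a-2, miR-26a-2-3p: cCUGUUCUugauuacuuguuuc
Mir26b, miR-26b-3p: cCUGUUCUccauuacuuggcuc
miR-26a-1-3p and miR-26a-2-3p differ at 6 of 22 bases, 1 of them in the seed (A4G). miR-26a-2-3p and miR-26b-3p differ at 4 of 22 bases, all outside the seed. The seed CUGUUCU of these 3′ strands is also carried by 2 loci outside the family, Mir6932 with 0 and 2 reads and Mir7039 with 4 and 6 reads in replicates 1 and 2.

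The hairpins show how far the identity of the Mir26a loci runs. In the lines for Mir26a-1 and Mir26a-2 the capitals mark the longest stretch that both share, and in the line for Mir26b the longest stretch it shares with Mir26a-1:
Mir26a-1: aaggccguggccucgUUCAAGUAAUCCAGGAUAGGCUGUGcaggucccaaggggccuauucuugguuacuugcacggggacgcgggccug
Mir26a-2: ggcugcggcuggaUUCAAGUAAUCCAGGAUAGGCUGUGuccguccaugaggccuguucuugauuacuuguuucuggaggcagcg
Mir26b: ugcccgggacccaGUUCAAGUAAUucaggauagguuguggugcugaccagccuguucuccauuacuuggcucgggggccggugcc
The stretch shared by Mir26a-1 and Mir26a-2 is 25 nt long, begins with the first base of miR-26a-5p and runs 3 nt past its end. Mir26b shares at most 11 nt with Mir26a-1 and 10 nt with Mir26a-2. Of the windows of 20 nt in a hairpin, 6 of 71 in Mir26a-1 and 6 of 65 in Mir26a-2 occurred in another microRNA locus, and 0 of 66 in Mir26b did. All 6 windows lie within this stretch, so the complete mature miR-26a-5p cannot be assigned to 1 of the Mir26a loci, while a read that begins 1 base earlier, or one from the 3′ arm, can. The 5′ and 3′ strands of Mir26b and the 3′ strands of the Mir26a loci were each found in 1 microRNA locus only, and no strand of the family was found in a transcript of another GENCODE gene.

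**Figure D1:**
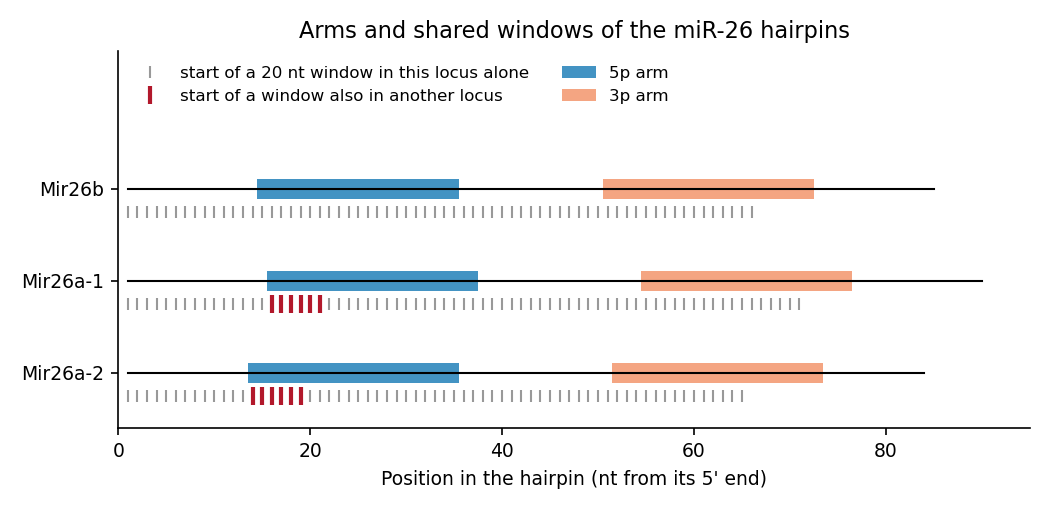
Hairpins of the 3 loci drawn to scale, with position in nt from the 5′ end on the horizontal axis; coloured boxes are the mature arms and ticks mark the start of each window of 20 nt. The 6 windows also present in another locus (dark red) start inside the 5′ arm of Mir26a-1 and of Mir26a-2, and Mir26b has 0.

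Mir26b (ENSMUSG00000065468.1) spans chr1:74394310-74394394 on mm10, 85 bp on the plus strand. It lies in intron 4 of Ctdsp1, which is 564 bp long, at 234 bp from the upstream and 245 bp from the downstream exon. Mir26a-1 (ENSMUSG00000065513.1) spans chr9:119031796-119031885, 90 bp in intron 5 of Ctdspl, which is 3283 bp long, at 1543 bp from the upstream and 1650 bp from the downstream exon. Mir26a-2 (ENSMUSG00000065430.1) spans chr10:126995530-126995613, 84 bp in intron 5 of Ctdsp2, which is 1946 bp long, at 1621 bp and 241 bp from the exons.

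The introns correspond in place. In each host the exon before the microRNA was 57 bp and the exon after it 93 bp long, and 3 exons of the principal transcript followed the intron. The host genes differ in size, with 5.777 kb for Ctdsp1, 21.259 kb for Ctdsp2 and 117.546 kb for Ctdspl. Each locus lies on the strand of its host, is intronic in every annotated host transcript that spans it (2 for Ctdsp1, 3 for Ctdspl and 1 for Ctdsp2), and overlaps no other gene. The microRNA loci nearest to them had few or no reads. These were Mir546 at 2.827 kb from Mir26a-2, with 0 and 2 reads, Mir1928 at 187.69 kb from Mir26b and Gm22008 at 1032.37 kb from Mir26a-1, both with 0 reads in each library.

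**Figure D2:**
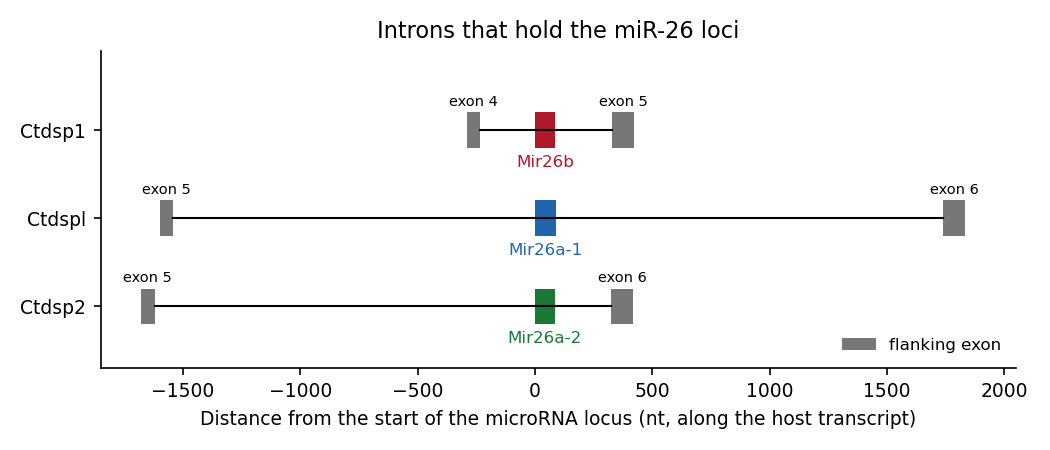
Host introns to scale, with distance in nt from the start of the microRNA locus along the host transcript on the horizontal axis; grey boxes are the exons on either side and coloured boxes the microRNA loci. The exons are 57 and 93 bp long in all 3 hosts, while the introns are 564, 3283 and 1946 bp long.

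Replicate 1 held 7745369 reads, of which 2740332 (35.4%, exact binomial 95% interval 35.35% to 35.41%) fell on a microRNA locus in its own orientation, and replicate 2 held 9627908 reads, of which 3207941 (33.3%, 33.29% to 33.35%) did. Levels are normalised read counts (CPM), the reads of a locus per 1000000 gene-assigned reads of its library, and are not divided by length, since the hairpins are all 84 to 90 nt long. Reads that mapped to several places, 40.6% and 37.9% of all reads in replicates 1 and 2, are counted at no locus. A locus is called detected with at least 10 reads in each library, which 389 of the 2202 loci had. The intervals below cover counting error only. As to the labelled tissue, 5 of 8 neuronal marker loci were detected, and the list had summed levels of 30746 and 40514 CPM in replicates 1 and 2. Those not detected were Mir124a-1, Mir124a-2 and Mir124a-3. Each shares a stretch of 20 nt with another locus, so that their few reads do not show a low level. Of 4 muscle loci, Mir206 was detected with 79 and 100 reads, and Mir1a-1, Mir1a-2 and Mir133a-1 had 0 reads, but these 3 share a stretch of 20 nt with another locus, so that their 0 does not show absence. In these bulk samples fewer cells of a type and less RNA per cell cannot be told apart.

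Mir26b supplied nearly all assigned reads of the family. It had 8401 reads in replicate 1, or 3066 CPM (95% interval 3001 to 3132), and 20147 reads in replicate 2, or 6280 CPM (6194 to 6367). Both libraries placed it among the abundant loci, at rank 55 and rank 36 of 2202, but replicate 2 was well above replicate 1 and the intervals did not overlap. Its mean was 4673 ± 2273 CPM (SD, n = 2).

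Mir26a-1 had 9 reads in replicate 1, or 3.28 CPM (1.502 to 6.235), and 54 reads in replicate 2, or 16.8 CPM (12.65 to 21.96), with a mean of 10.1 ± 9.58 CPM (SD, n = 2). With 9 reads it missed the minimum in replicate 1 and is not among the detected loci. Mir26a-2 had 31 reads in replicate 1, or 11.3 CPM (7.69 to 16.1), and 62 reads in replicate 2, or 19.3 CPM (14.8 to 24.8), with a mean of 15.3 ± 5.67 CPM (SD, n = 2), and was detected. Both Mir26a loci were thus low in both libraries and above the 3 reads that a count of 0 allows, which correspond to 1.09 CPM in the first and 0.935 CPM in the second library.

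The order of the loci was Mir26b, Mir26a-2, Mir26a-1 in both libraries. Mir26b was far from the other members, since its lower library exceeded the higher library of either Mir26a locus. The order of Mir26a-1 and Mir26a-2 was not resolved, as their means differed by less than either SD and their intervals overlapped in replicate 2, although not in replicate 1. All reads of the 3 loci were on the RNA strand, with 0 reads on the opposite strand in each library.

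**Figure D3:**
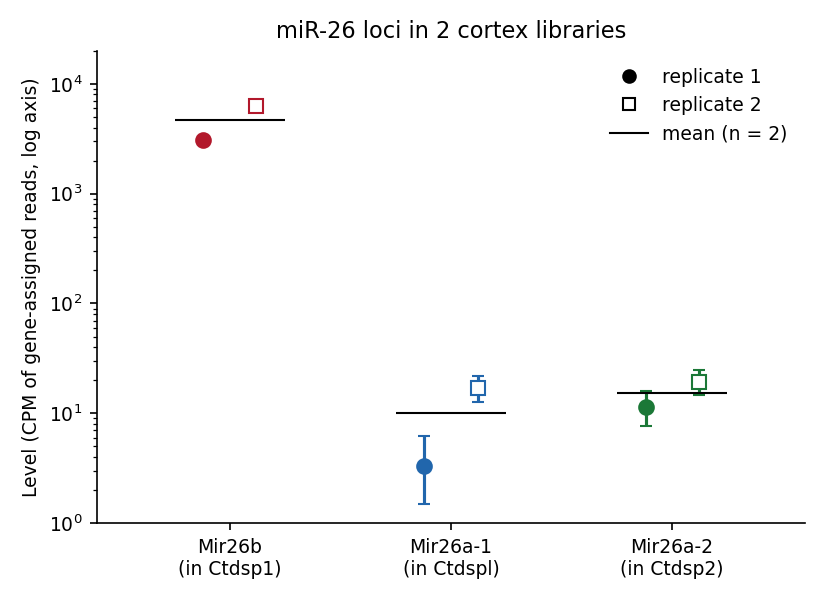
Level of each miR-26 locus in CPM (log axis) in replicate 1 (filled circles) and replicate 2 (open squares), with exact 95% counting intervals as bars and the mean of n = 2 as a line. Mir26b lies at 3066 and 6280 CPM and both Mir26a loci below 20 CPM.

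Ratios of reads within a library do not depend on the scaling between libraries. Mir26b held 99.5% of the family's 8441 assigned reads in replicate 1 (exact 95% interval 99.4% to 99.7%) and 99.4% of 20263 in replicate 2 (99.3% to 99.5%), a mean of 99.5 ± 0.0697% (SD, n = 2). Its reads were 210-fold those of both Mir26a loci together in replicate 1 and 174-fold in replicate 2. On the scale of log2(CPM + 1), Mir26b exceeded the mean of the Mir26a loci by 8.53 in replicate 1 and 8.36 in replicate 2, a difference of 8.45 ± 0.12 (SD, n = 2). The added 1 makes this difference depend on the base of the CPM, and with all reads as the base it was 8.23. A share so close to 100% moves little when the Mir26a reads change: together these made up 0.474% of the family in replicate 1 and 0.572% in replicate 2.

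These ratios compare assigned reads, not the mature microRNAs. The reads that mapped to several places outnumbered those of Mir26b 374-fold in replicate 1 and 181-fold in replicate 2, and the files do not say how many of them are miR-26a-5p. The level of miR-26a in this tissue, and its order relative to miR-26b, cannot be read from these counts. Nor do the files say which arm the reads of a locus come from.

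Between the Mir26a loci, Mir26a-1 held 22.5% of 40 reads in replicate 1 (exact 95% interval 10.8% to 38.5%) and 46.6% of 116 reads in replicate 2 (37.2% to 56.0%). The odds of a read lying at Mir26a-1 rather than Mir26a-2 were 2.98-fold higher in replicate 2 (95% interval 1.25 to 7.77, two-sided Fisher's exact test on the reads, p = 0.00875). This difference exceeds counting error and compares these libraries only, so the spread between animals or preparations is not covered.

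All 3 loci were higher in replicate 2 than in replicate 1 after scaling with the trimmed mean of M values (TMM), as 49.6% of the 389 detected loci were. Ratios between the libraries compare these libraries only. Mir26b had a log2 ratio of 0.86 (exact 95% interval 0.83 to 0.90), a 1.82-fold difference, Mir26a-2 of 0.60 (−0.044 to 1.27), a 1.52-fold difference whose interval includes no difference, and Mir26a-1 of 2.19 (1.16 to 3.39), a 4.55-fold difference resting on the 9 reads of replicate 1. Of the 2 detected members 0 differed by at least 2-fold, while 6.43% of detected loci were at least 2-fold higher in replicate 2 and 11.3% were 2-fold apart either way. Mir26a-1, the remaining member, differed by more than 2-fold but lies outside the detected loci. With a minimum of 5 reads in each library, which admits it, 9.37% of 459 loci were at least 2-fold higher in replicate 2 and 16.1% were 2-fold apart either way. With library totals in place of TMM, which moves the median log2 ratio of detected loci from −0.0098 to 0.16, Mir26b passed 2-fold as well (log2 ratio 1.03), and 10.3% of detected loci were then at least 2-fold higher in replicate 2.

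Among the 389 detected loci, 38 had a higher ratio than Mir26b and 66 a higher ratio than Mir26a-2. The log2 ratio over these loci had an SD of 0.70, with the middle 50% between −0.40 and 0.37, and the coefficient of variation beyond counting from edgeR's common dispersion was 0.317. The ratios of Mir26b and Mir26a-2 thus lay above the middle 50%. Levels of cell type markers also differed between the libraries. The 3 oligodendrocyte loci, all detected, summed to 4275 CPM in replicate 1 but 1477 CPM in replicate 2. The 3 endothelial and mural loci, all detected, summed to 21215 and 13606 CPM, although Mir145a was higher in replicate 2 (130 and 188 CPM). The erythroid loci, 2 of 2 annotated ones detected, summed to 952 and 564 CPM, although Mir144 was higher in replicate 2 (43.4 and 53.6 CPM). The choroid plexus list (1 of 2 detected) had a higher sum in replicate 2, with 447 and 899 CPM. So did the microglial and leukocyte list (3 of 4 detected, 691 and 1233 CPM), but most of this sum was Mir150 alone (518 and 1068 CPM). Mir142 (51.1 and 68.3 CPM) and Mir223 (1.09 and 14.0 CPM, not detected) were also higher, and Mir155 was lower (121 and 82.6 CPM). The neuronal list given above also had a higher sum, but its detected loci were divided. Mir128-1 (5376 and 15159 CPM), Mir128-2 (2224 and 4923 CPM) and Mir137 (6565 and 8340 CPM) were higher. Mir132 (9788 and 8428 CPM) and Mir138-1 (6789 and 3655 CPM) were lower. The largest rise was at the miR-128 loci, which carry an identical mature strand, so the sum does not stand for neuronal loci in general. None of these 6 lists had an annotated locus at 0 in both libraries. The liver locus Mir122 was at 60.9 and 43.0 CPM and the muscle list summed to 28.8 and 31.2 CPM. The part of these cell types in the difference at Mir26b was not tested.

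**Figure D4:**
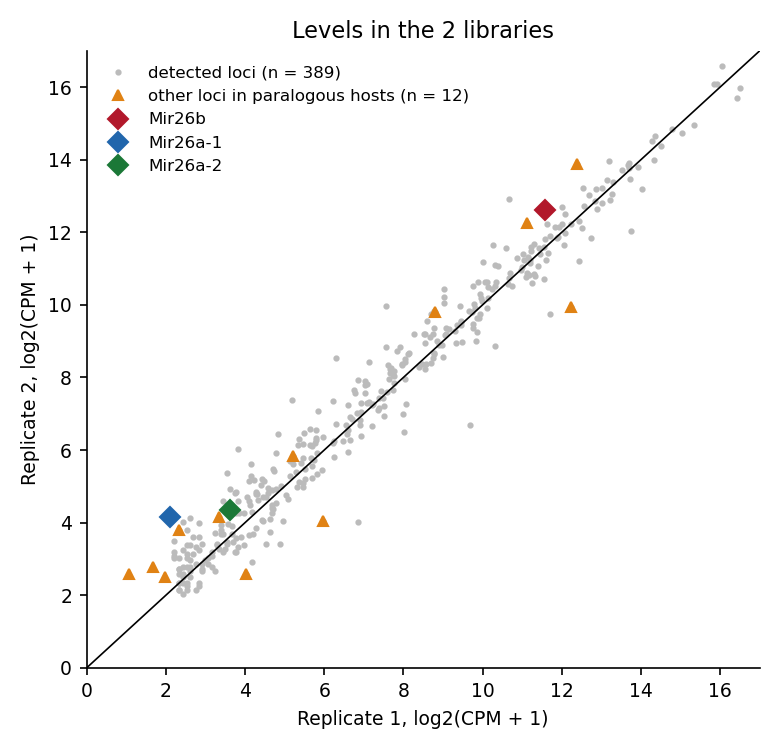
Each point is a locus, with log2(CPM + 1) in replicate 1 on the horizontal and in replicate 2 on the vertical axis; the line marks equal CPM, diamonds are the miR-26 loci and triangles the 12 loci of other families in paralogous hosts. The 3 miR-26 loci lie above the line, as do 61.7% of the 389 detected loci. Mir26b lies among the abundant loci and the Mir26a loci near the low end of the detected loci.

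The loci with the most similar pattern were sought among the detected loci only. They were those with the smallest Euclidean distance in log2(CPM + 1) over the 2 libraries, which is a likeness of level and says little more. For Mir26b these were Mir92b (distance 0.40, 3159 and 4763 CPM in replicates 1 and 2), Mir409 (0.42, 4094 and 6611 CPM) and Mir328 (0.51, 4331 and 5787 CPM), all with a smaller ratio between the libraries than Mir26b. For Mir26a-1 they were Mir544 (0.35), Mir218-1 (0.44) and Mir1247 (0.51), each with 11 to 14 reads in replicate 1 and 41 to 53 in replicate 2. For Mir26a-2 they were Mir183 (0.18), Mir3070a (0.25) and Mir8114 (0.30), with 27 to 37 reads in replicate 1 and 59 to 74 in replicate 2. Neither Mir26b nor Mir26a-2 was among the nearest loci of another member. Mir26a-1, which was not detected, could not appear among them.

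Other microRNA families in introns of paralogous protein-coding genes were set beside miR-26, to see whether a single dominant locus is usual among them. Of 12 such loci 9 were detected, where 389 of all 2202 loci were. Of these 9, 2 were at least 2-fold higher and 3 at least 2-fold lower in replicate 2, where 6.43% of all 389 detected loci were 2-fold higher and 11.3% were 2-fold apart either way. Their median log2 ratio was 0.71, against −0.0098 over the 389. Of the 3 loci below the minimum, Mir211 (1.26) and Mir208b (2.02) were also past 2-fold, on few reads. The miR-103 and miR-107 loci of the pantothenate kinase genes resembled miR-26 in having 1 abundant locus beside a pair with an identical strand, but were lower in replicate 2. Mir107 had 13196 and 3122 reads in replicates 1 and 2, against 42 and 16 for Mir103-1 and 170 and 50 for Mir103-2, whose mature strand is identical. Unlike Mir26b, Mir107 shares a stretch of 20 nt with another locus. All 3 were at least 2-fold lower in replicate 2, with log2 ratios of −2.48 for Mir107, −1.79 for Mir103-1 and −2.17 for Mir103-2.

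The miR-128 loci, in R3hdm1 and Arpp21, also carry an identical mature strand, yet both had many reads. Mir128-1 had 14732 and 48629 reads and Mir128-2 had 6095 and 15794 reads in replicates 1 and 2, against at most 62 reads in a library for a Mir26a locus. The stretch that the miR-128 loci share is 23 nt and ends with the last base of the mature strand, whereas that of the Mir26a loci runs 3 nt past it. Whether this difference in length bears on the reads was not tested. Mir218-1 and Mir218-2, of the axon guidance genes Slit2 and Slit3, share 22 nt, ending 1 nt past the mature strand, and held 11 and 98 reads in replicate 1, and 41 and 179 in replicate 2.

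Families without an identical strand were also uneven. Mir204 and Mir211, of the Trpm channel genes, had 1219 and 6 reads in replicate 1 and 2864 and 19 in replicate 2. The myosin-gene loci Mir208a, Mir208b and Mir499, known from muscle, had 8, 3 and 25 reads in replicate 1 and 15, 16 and 54 in replicate 2. The ratio of Mir204 between the libraries, 0.83 on the log2 scale, was close to that of Mir26b.

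**Figure D5:**
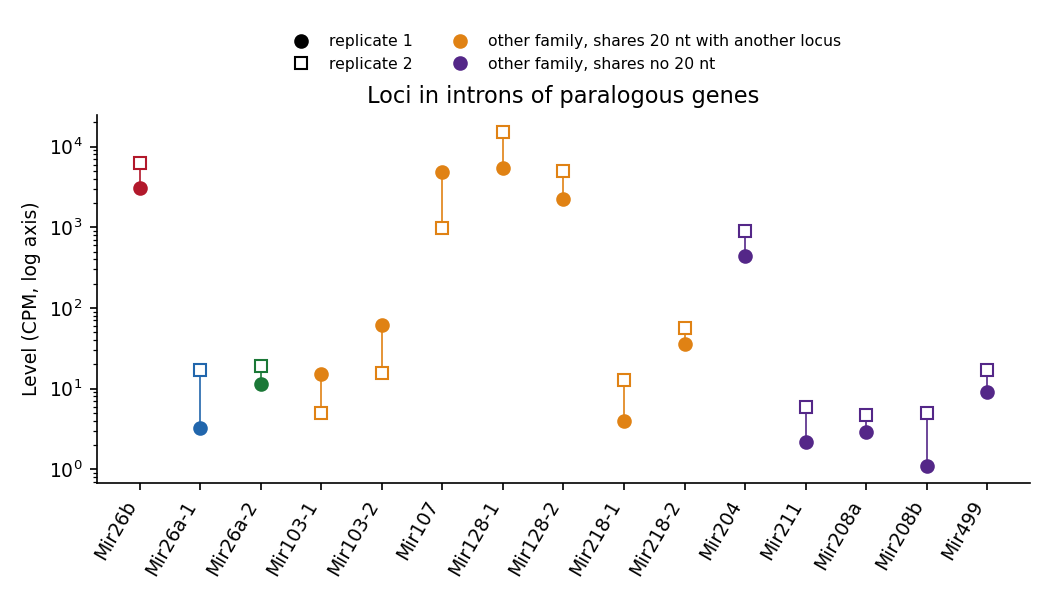
Level in CPM (log axis) of the 3 miR-26 loci and of 12 loci of other families in paralogous hosts, in replicate 1 (filled circles) and replicate 2 (open squares). Mir26b and Mir107 each stand far above the other loci of their family, while Mir128-1 and Mir128-2 are both at 2224 CPM or more.

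Of the 1084 loci with a stretch of 20 nt identical to another locus, such as Mir26a-1 and Mir26a-2, 82 (7.56%) were detected. Of the 1118 loci without one, the class of Mir26b, 307 (27.5%) were. In the first class 949 loci had 0 reads in both libraries, and in the second 501. The first includes 86 loci that carry the miR-680 strand, most of them with Gm symbols, so the classes also differ in kind of locus. Mir26b, at 4673 CPM, was above the median of the detected loci of its class, 151 CPM, and Mir26a-2, at 15.3 CPM, was below the median of its own, 122 CPM. Of the 1674 distinct mature sequences in RefSeq, 54 (3.23%) are encoded at several loci, miR-26a-5p among them.

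The CTDSP phosphatases act with REST, and microRNA loci known to be repressed by REST in non-neuronal cells were read in the same libraries. Of 8 such loci 4 were detected, where 389 of all 2202 loci were. Of these 4, 0 differed by at least 2-fold between the libraries, where 11.3% of all detected loci did, and their median log2 ratio was 0.17. Below the minimum, Mir9-2 was past 2-fold (log2 ratio 1.19), and Mir124a-3 had 0 reads in replicate 1 and 7 in replicate 2. Mir132 had 26822 and 27038 reads in replicates 1 and 2, a log2 ratio of −0.39, so it was lower in replicate 2 where Mir26b was higher. Mir212, from the same primary transcript, had 1106 and 1761 reads (0.27). Mir9-1, Mir9-2 and Mir9-3 had 50, 3 and 275 reads in replicate 1 and 85, 9 and 379 in replicate 2. The 3 Mir124a loci had at most 12 reads in a library, and like the Mir26a and Mir9 loci they share a stretch of 20 nt with another locus.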

How the data were processed

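MicroRNA libraries of 1 group of 2 replicates were analysed. The authors deposited raw counts of reads per microRNA gene on mm10 with GENCODE M21, per the file lists that came with them. The aligner, counter and trimming settings were not given in the sources used here. Of 3 unnamed count columns, the one on the RNA strand was used, identified from the values. The 4 rows that name no gene, 64.6% and 66.7% of reads in replicates 1 and 2, were left out of library sizes.

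All 2202 identifiers matched GENCODE M21. Ratios used edgeR 4.0.16 TMM factors over loci with at least 10 reads in each library, and the common dispersion an intercept only. Intervals are exact binomial. Since 1 library against another tests no condition, called means at least 2-fold, and the only p-value, from Fisher's exact test, compares reads of the libraries; it was added after the values were seen. TMM scaling and the 2-fold call were tested on simulated data, and the common dispersion only on the simulated loci left unchanged. In the real data the dispersion was taken over all detected loci. Host introns are of the transcript tagged principal. Named loci were the members, the 3 loci nearest to each, list loci, and loci sharing a seed; the neighbouring loci Mir546, Mir1928 and Gm22008 were added after their values were seen. Members and lists were chosen with earlier results of these data known. Alternatives were the column without strand, minima of 5, 50 or 1 reads, a pseudocount of 5, DESeq2 1.42.0 size factors, library totals, all reads as the base, and each replicate left out.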

Additional observations from a re-analysis of the deposited data

How the results depend on the processing

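No log2 ratio between the libraries changed direction under any alternative run. Of 50 recomputed values, 42 were labelled the same, 7 moved and 1 passed the 2-fold limit. Levels, the share and the log2 excess were judged by their SD, and ratios between the libraries by the 2-fold limit. The number of loci and the coefficient of variation were judged by a set fold of their main value. Leaving out 1 of 2 replicates cannot move a mean by more than the SD, so those values were bound to stay the same. With library totals the log2 ratio of Mir26b between the libraries was 1.03 in place of 0.86. Per 1000000 of all reads, Mir26b averaged 1589 and Mir26a-2 5.22, and the log2 excess of Mir26b over the Mir26a loci was 8.23, because the base is larger; with a pseudocount of 5 it was 8.03. The number of loci at least 2-fold apart was 44 of 389 detected loci, 74 with a minimum of 5 reads, 25 with 50 and 285 with 1 read in either library, as loci with few reads were added or removed. Leaving out a replicate gave 3066 to 6280 CPM for Mir26b, 3.28 to 16.8 CPM for Mir26a-1, 11.3 to 19.3 CPM for Mir26a-2, a Mir26b share of 99.4% to 99.5%, and a log2 excess of 8.36 to 8.53; ratios between the libraries could not be formed then. No paired analysis was possible because the labels give 1 group. Depth limits the precision at the Mir26a loci, which had 9 to 62 reads in a library.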

Other observations

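The miR-128 and Mir26a pairs differ in how far identity runs past the mature strand, which was noticed after their values were seen, so the same measure is given for all strands encoded at exactly 2 loci, as a description with no test. Of 46 strand copies with 3 or more shared bases past the end, the class of the Mir26a loci, 11 (23.9%) were at loci with at least 10 reads in each library. Of 30 copies with 1 to 2 such bases 19 (63.3%) were, and of 46 copies with 0 such bases 22 (47.8%) were. The highest mean level was 1171 CPM in the first class, at Mir129-2, and 10267 CPM in the last, at Mir128-1. The classes also differ in kind of locus. The first includes near-identical hairpins with 0 reads, such as Mir683-1 and Mir683-2, which share 18 bases past the end. It also includes Mir129-1 and Mir129-2, which share 3 bases like the Mir26a loci but had 1014 and 2382 reads in replicate 1. Copies at 1 locus share its reads, and the reads of a locus may come from its other arm.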
